A study of Mus musculus with 6 samples.

Results

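The cells described here are early postnatal mouse retinal cells that carried *Otx2* together with a high count of *Neurod4* and had no detectable transcript of the rod genes *Nrl* and *Nr2e3*. They were chosen by their own counts. A cell entered when it held at least 1 unique molecular identifier (UMI, a count of 1 captured transcript) of *Otx2*, at least 3 of *Neurod4*, at least 1 of any of *Dll3*, *Gadd45g*, *Mybl1* and *Olig2*, and 0 of *Nrl*, *Nr2e3*, *Tfap2b*, *Ptf1a* and *Mki67*. Of the 39423 cells kept from 4 postnatal libraries, 2551 met this rule, which is 6.47%. These 2551 cells are called the members below, and levels of the 11 genes in the rule are given as a description only.

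The libraries came from neurosensory retinas of wild type mice (C57BL/6J in the methods), and the labels give no transgene or treatment for any group. There was 1 library each at postnatal day (P) 0 and P6 and a pair at P3. The methods state that several retinas were pooled for each timepoint and give no number of animals. Retinas were dissociated with papain, live cells were sorted by exclusion of DAPI, and transcripts were counted on the 10x Genomics platform. The libraries held between 32624738 and 67585688 UMIs. A barcode was kept if it had 300 to 6000 genes and no more than 15% of its UMIs from mitochondrial genes, and any pair of libraries shared at most 70 barcodes. With 1 library at P0 and at P6, ages were not tested against each other, and the P3 pair was used to show how far libraries of 1 age differ.

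*Otx2* is a homeodomain transcription factor that is required for photoreceptors and bipolar cells. It comes on around the last division of retinal progenitors and directs cells toward these fates, in part by activating *Crx* and *Prdm1*. *Neurod4* (Math3) is a basic helix-loop-helix (bHLH) factor of newly born neurons. In differentiating cells *Dll3* dampens Notch signalling from within, *Gadd45g* is linked to exit from the cell cycle, and *Mybl1* is a transcription factor of the Myb family. *Prdm1* (Blimp1) holds back bipolar genes in future photoreceptors. *Nrl*, with its target *Nr2e3*, sets rod identity. On GRCm38, *Neurod4* lies at chr10:130268152-130280240 and *Otx2* at chr14:48657677-48673819, both on the minus strand.

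The promoter windows below are printed because they belong to the gene that gives the cells their name, to the gene with the largest fitted fold change against other kept cells, and to a pair of photoreceptor genes whose levels separated the members from other neurogenic cells. Each runs 5′ to 3′ from 250 bases before to 50 bases after an annotated start in RefSeq on GRCm38.p6. Capitals mark matches, on either strand, to TAATCC (reverse complement GGATTA, the core bound by *Otx2* and *Crx*) or to CAGCTG (an E-box, the kind of site bound by bHLH factors). The *Neurod4* window, chr10:130280089-130280388 on the minus strand, is 1 of 2 windows of that gene. The *Tacr3* window is chr3:134828757-134829056 on the plus strand. The *Crx* window is chr7:15879906-15880205 on the minus strand, and the *Abca4* window is chr3:122044210-122044509 on the plus strand.
Neurod4: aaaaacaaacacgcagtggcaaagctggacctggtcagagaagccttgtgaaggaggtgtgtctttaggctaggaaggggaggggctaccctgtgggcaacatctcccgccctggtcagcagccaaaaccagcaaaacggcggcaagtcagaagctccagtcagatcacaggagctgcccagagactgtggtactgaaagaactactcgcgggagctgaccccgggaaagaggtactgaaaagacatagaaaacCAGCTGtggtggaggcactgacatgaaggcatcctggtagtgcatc
Tacr3: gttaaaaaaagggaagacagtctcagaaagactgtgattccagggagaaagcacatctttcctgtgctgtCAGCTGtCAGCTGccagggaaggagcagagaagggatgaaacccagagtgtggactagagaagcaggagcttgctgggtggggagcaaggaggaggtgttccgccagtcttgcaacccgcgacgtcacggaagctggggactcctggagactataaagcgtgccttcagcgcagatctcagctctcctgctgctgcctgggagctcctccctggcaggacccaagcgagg
Crx: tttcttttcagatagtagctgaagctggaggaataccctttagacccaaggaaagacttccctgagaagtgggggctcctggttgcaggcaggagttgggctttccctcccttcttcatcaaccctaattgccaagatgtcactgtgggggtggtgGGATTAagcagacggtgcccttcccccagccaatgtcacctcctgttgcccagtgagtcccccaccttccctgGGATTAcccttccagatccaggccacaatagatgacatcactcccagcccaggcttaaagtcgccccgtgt
Abca4: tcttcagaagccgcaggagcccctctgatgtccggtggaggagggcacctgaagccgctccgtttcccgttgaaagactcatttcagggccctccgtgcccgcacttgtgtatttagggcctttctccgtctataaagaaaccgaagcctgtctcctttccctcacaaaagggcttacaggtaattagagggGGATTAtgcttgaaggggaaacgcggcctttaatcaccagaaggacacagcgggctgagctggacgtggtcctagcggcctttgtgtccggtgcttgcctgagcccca

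The *Crx* window held 2 matches to TAATCC and the *Abca4* window 1, while the *Neurod4* window held 1 match to CAGCTG and the *Tacr3* window 2. Matches of such short words are common. Over all 32851 windows, 7.06% held TAATCC, 16.3% held CAGCTG and 17.2% held a second E-box, CAGATG (reverse complement CATCTG). A match is a description of the letters and shows no binding.

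The share of members was far lower in the P0 library than in P3 replicate 1 and P6, and the P3 pair did not give the same share. Members were 289 of 10407 cells at P0 (2.78%, 95% exact binomial interval 2.47 to 3.11), 1107 of 12303 in P3 replicate 1 (9.0%, 8.50 to 9.52), 8 of 3113 in P3 replicate 2 (0.257%, 0.111 to 0.506) and 1147 of 13600 at P6 (8.43%, 7.97 to 8.91). These intervals cover counting error only. When each cell was thinned to 2000 UMIs before the rule was applied, the share was 1.74% at P0, 8.77% and 0.128% in the P3 replicates and 7.76% at P6, so the gap within the P3 pair was also there at equal UMIs per cell.

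P3 replicate 2 stood apart from its partner, and the difference lay in the 5 exclusions. Before them, 21.9% of its cells met the *Otx2*, *Neurod4* and neurogenic criteria (681 cells, 20.4 to 23.4), against 18.1% in P3 replicate 1 (2232 cells), 6.09% at P0 (634 cells) and 17.1% at P6 (2322 cells). Of those 681 cells, 1.17% survived the exclusions, whereas 45.6%, 49.6% and 49.4% survived in the P0, P3 replicate 1 and P6 libraries. *Nrl* was seen in 89.9% of the 681 cells against 29.3% of the same cells in P3 replicate 1. *Nr2e3* was seen in 90.7% against 22.3%, and *Mki67*, a gene of dividing cells, in 70.2% against 9.77%. The 681 cells had a median of 14931 UMIs, against 4117.5 in P3 replicate 1. *Otx2* cells with 3 or more *Nrl* UMIs should not divide. In P3 replicate 2, 62.6% of them also held *Mki67*, at a median of 11473 UMIs, against 9.68% at 2899 UMIs in P3 replicate 1. *Tfap2b* cells without *Otx2* had medians of 5041.0 UMIs in P3 replicate 2 and 5038.5 in P3 replicate 1. In that order they held *Nrl* in 14.2% and 6.46%, *Nr2e3* in 15.4% and 9.23%, and *Mki67* in 28.0% and 24.8%. The part of free RNA in these detection rates, and of depth in the 681 cells and the *Otx2* cells, was not tested. P3 replicate 2 was also counted on an older gene annotation, and its 8 members were too few for a summed profile of at least 20 cells. The tests below therefore rest on P0, P3 replicate 1 and P6.

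**Figure D1:**
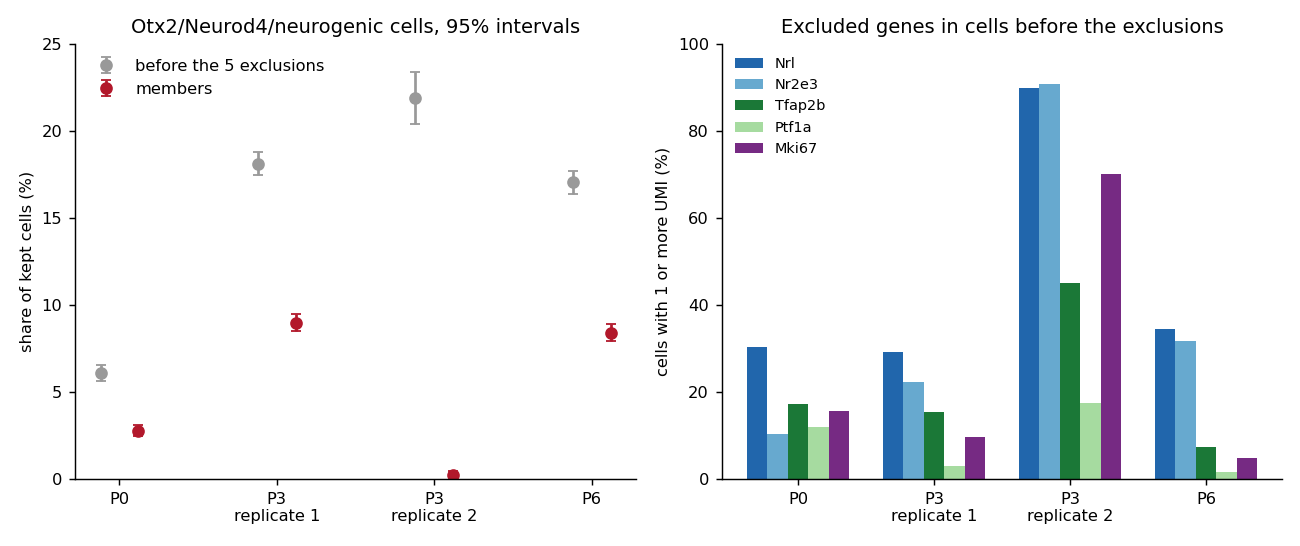
Left, share of kept cells (%) in each library that met the *Otx2*, *Neurod4* and neurogenic criteria before the 5 exclusions (grey) and after them (red, the members), with 95% exact binomial intervals. Right, percentage of the cells before the exclusions with at least 1 UMI of each excluded gene; P3 replicate 2 reaches 89.9% for *Nrl* and 90.7% for *Nr2e3*, where the other 3 libraries lie at 34.6% or below.

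Among the members the genes of the rule had these counts in the 3 libraries of the tests. The median cell held 6, 9 and 11 *Otx2* UMIs in the P0, P3 replicate 1 and P6 libraries, and 8, 10 and 9 *Neurod4* UMIs. *Gadd45g* was seen in 71.3%, 79.6% and 90.1% of members in that order, and *Dll3* in 70.9%, 48.2% and 50%. *Mybl1* was seen in 59.2%, 67.7% and 67.8%. *Olig2*, a bHLH factor of neurogenic progenitors, was seen in 10.4%, 10.7% and 12.2%, and 2 members, both in P3 replicate 1, owed their place to *Olig2* alone. Most members carried more than 1 of these genes, since 72 of 289, 352 of 1107 and 303 of 1147 members had exactly 1. Members just inside the *Neurod4* threshold, with 3 UMIs, numbered 31, 59 and 109, against 42, 64 and 78 cells just outside it with 2. Levels are given as CPM, a gene's summed UMIs relative to those of all genes in the same cells, in the order P0, P3 replicate 1, P6. Summed *Otx2* was 1234, 2009.9 and 2292 CPM inside and 1341, 2209.6 and 2242 outside. *Crx* stood at 117, 257 and 268 CPM inside and 169, 168 and 253 outside.

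The label was set beside markers that the rule did not use. Because the rule required 0 UMIs of *Nrl*, *Nr2e3*, *Tfap2b*, *Ptf1a* and *Mki67*, low rod, amacrine and progenitor markers partly follow from the selection. The same may hold for called doublets, so these values are no independent check. *Sag* (rod arrestin) stood at 2.69, 15.9 and 21.8 CPM, against 17.2, 260 and 730 in the other kept cells. The summed level of 8 rod markers was 140, 154 and 206 CPM, against 152, 1464 and 3848 in the other kept cells, and *Rom1* made up most of the members' sum. All 10 progenitor markers were detected, at a sum of 949, 701 and 1209.6 against 5288, 4050.1 and 3134 in the other cells. The 8 members of P3 replicate 2 went against the label here, with progenitor markers at 4075 CPM against 2847 in its other cells, cell cycle genes at 5739 against 3614 and Notch targets and inhibitors at 1840.1 against 1038. Of 7 bipolar markers, 5 were at 0 in both earlier libraries and none at P6, where their sum reached 196 CPM from 12.1 and 21.7. The P6 members thus carried bipolar genes, which their name does not mention. This was not particular to them, since at P6 none of the 7 was at 0 in the other kept cells either. The same held for the *Otx2* cells with rod genes that are compared below. The sums were 100, 13.1 and 56.8 CPM in the other kept cells and 27.2, 15.5 and 70.5 in the cells with rod genes. In these 3 libraries markers of microglia summed to at most 2.01 CPM and those of red blood cells to at most 4.87. Amacrine markers summed to 289, 589 and 369, against 757, 600 and 454 in other cells, and immediate early genes, which respond to dissociation, to 379, 858 and 1199, against 886, 1374 and 1781 in other cells. Called doublets were 6.92%, 3.79% and 3.66% of members, against 8.20%, 9.83% and 10.8% of all kept cells.

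The first comparison asked which genes went with the rule's genes when members were set against all other kept cells of the same library. The Hes, Hey and Id repressors and inhibitors listed with Notch signalling were low in the members, and the bHLH genes *Atoh7* and *Neurod1*, the photoreceptor regulators *Prdm1*, *Crx* and *Rorb*, and genes such as *Tacr3* and *Vxn* were high. Of 15625 genes tested on summed counts with the library as a block, 1309 were higher in the members (8.38%) and 2580 lower (16.5%), by the quasi-likelihood test of edgeR, with p-values adjusted by Benjamini-Hochberg. The median log2 fold change over all genes was -0.05. Since 0 UMIs of *Mki67*, *Nrl* and *Nr2e3* were required, low cell cycle and rod genes partly follow from the selection.

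Of 12 neurogenic genes, 6 were higher in the members and 0 lower, with a median log2 fold change of 0.76. *Atoh7*, the bHLH factor of the ganglion cell lineage, stood at 481, 107 and 28.7 CPM, against 98.2, 20.5 and 3.48 in the other cells. It was higher in each library although its level differed between ages, and the log2 fold change was 2.63 (SE 0.18, adjusted p = 8.19e-05). *Neurod1*, a bHLH factor that maintains photoreceptors, stood at 2309, 2967 and 2048 CPM against 276, 998 and 1228 (log2 fold change 1.87, SE 0.36, adjusted p = 0.0086). *Btg2*, an antiproliferative gene of cells about to leave the cycle, reached 764, 1102 and 1101 against 156, 420 and 552 (log2 fold change 1.65, SE 0.20, adjusted p = 0.00122). The margin of both genes over the other cells was narrower at P6 than at P0. *Rgs16*, a regulator of G protein signalling, had a log2 fold change of 1.75 (SE 0.18, adjusted p = 0.000501). *Mfng*, a Fringe enzyme that modifies Notch, had one of 1.42 (SE 0.14, adjusted p = 0.000371), and *Hes6*, a Hes family member that promotes neurogenesis, one of 0.55 (SE 0.11, adjusted p = 0.00946).

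All 9 genes listed as Notch targets and inhibitors were lower, with a median log2 fold change of -2.52. They are *Hes1*, *Hes5*, *Hey1*, *Hey2*, *Lfng* and *Nrarp*, which Notch activates or which act on it, and *Id1*, *Id2* and *Id3*, inhibitors of bHLH factors that other signals also induce. *Hes1*, a repressor that Notch activates to keep progenitors undifferentiated, stood at 32.2, 22.8 and 16.1 CPM in the members and at 391, 324 and 234 in the other cells. No library's members came near the other cells, and the log2 fold change was -3.68 (SE 0.11, adjusted p = 6.63e-06). Progenitor markers were lower in the members too (949, 701 and 1209.6 CPM against 5288, 4050.1 and 3134). So were Müller glia markers (780, 820 and 1004 against 1227, 1603 and 2516). The part of progenitors and glia among the other cells in these values was not tested. Of 7 ligands and receptors, *Dll4* was higher and *Notch2* lower, beside 8.38% and 16.5% of all genes tested. Without P0 3 were lower, and without P6 2 were higher. *Dll4*, a Notch ligand of newborn retinal neurons, stood at 36.3, 30.1 and 26.8 against 8.46, 8.98 and 6.5 (log2 fold change 2.05, SE 0.16, adjusted p = 0.000152). The receptor *Notch1* did not pass, at 178, 161 and 148 against 146, 240 and 224.

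**Figure D2:**
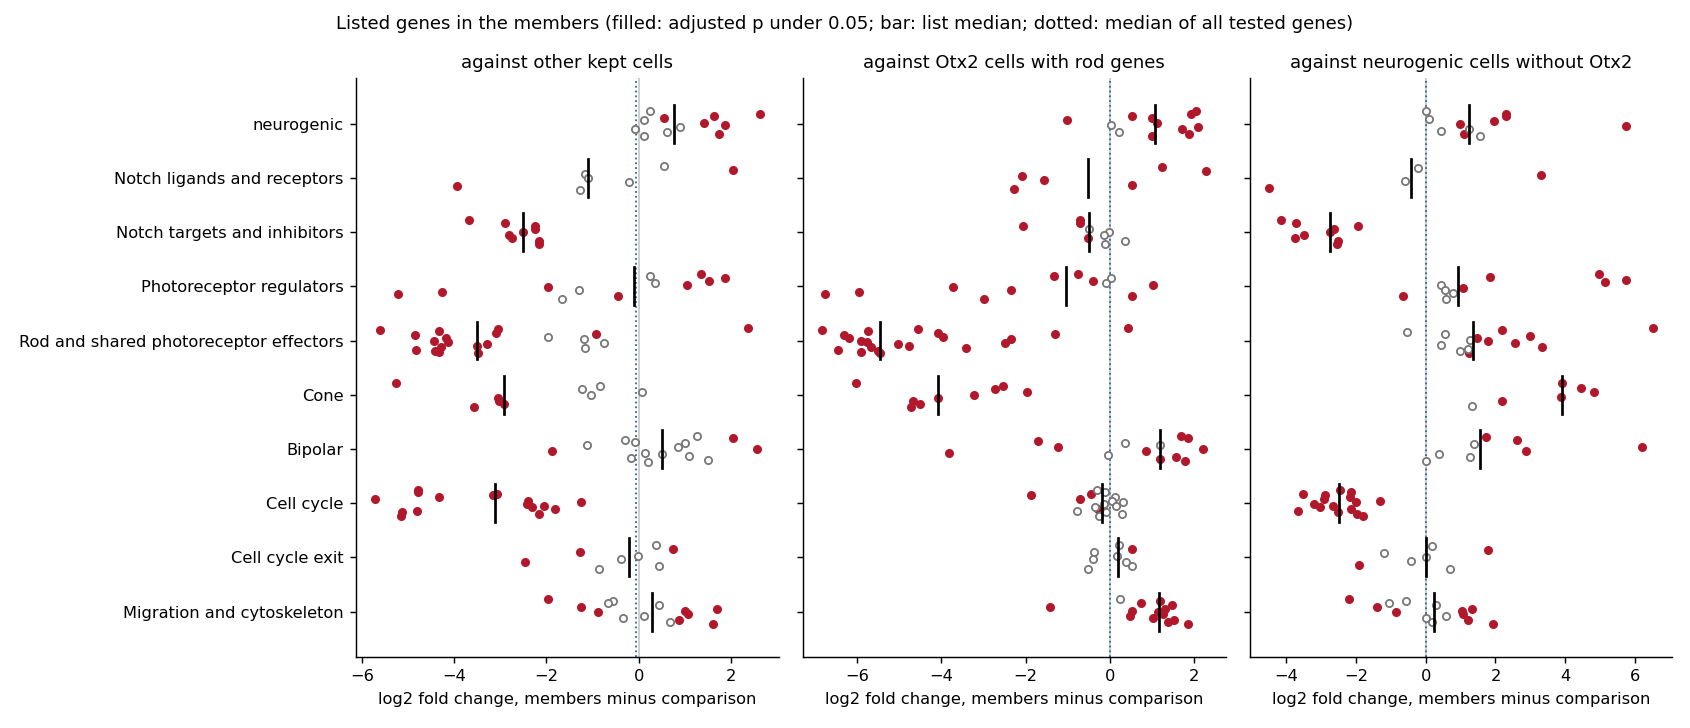
Log2 fold change (edgeR) of each listed gene, members minus comparison, in the 3 comparisons; filled points have an adjusted p under 0.05, black bars are list medians and dotted lines the median of all tested genes. All 9 Notch targets and inhibitors lie below 0 against other kept cells (median -2.52) and against neurogenic cells without *Otx2* (median -2.74), and rod effectors have a median of -5.45 against *Otx2* cells with rod genes and of 1.37 against neurogenic cells without *Otx2*.

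Of 12 photoreceptor regulators tested, 4 were higher and 4 lower, and with the 8 members of P3 replicate 2, 2 were higher and 5 lower, with *Neurod1* (adjusted p = 0.0554) and *Crx* (0.057) no longer passing. *Prdm1* stood at 341, 212 and 131 CPM against 45.3, 88.5 and 114 (log2 fold change 1.53, SE 0.41, adjusted p = 0.0333), and its margin was smallest at P6. *Crx*, the homeodomain factor that drives photoreceptor genes, stood at 214, 302 and 313 against 30.8, 148 and 288 (log2 fold change 1.36, SE 0.41, adjusted p = 0.0467). This call for *Crx* lay close to the threshold and was lost with *Neurod4* at 5 or more (adjusted p = 0.0512) and without the neurogenic criterion (0.071). *Rorb*, a nuclear receptor needed upstream of *Nrl*, stood at 2747, 3959 and 3397 against 1589, 1868 and 1685 (log2 fold change 1.05, SE 0.12, adjusted p = 0.00077). *Samd7* and *Samd11*, repressors of non-rod genes in rods, were lower, with *Samd7* at 1.34, 1.99 and 2 against 6.37, 47.3 and 142. *Six3* and *Rxrg*, a cone nuclear receptor, were also lower.

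Of 21 rod and shared photoreceptor effectors 16 were lower and 1, *Abca4*, higher. *Abca4*, the retinoid transporter of outer segment discs, stood at 132, 181 and 178 CPM against 10.3, 48.5 and 64.0 (log2 fold change 2.38, SE 0.35, adjusted p = 0.00269). It was the exception in a list with a median of -3.51. Cone genes were lower for 5 of 9 tested (median -2.92), for 9 of 9 without P0 and for 3 of 8 without P3 replicate 1. Their summed level was 738, 531 and 535 CPM against 507, 1576 and 1988, so at P0 it was the members that held more. All 16 cell cycle genes were lower, with a median of -3.11. Of 8 genes of cell cycle exit, *Ccng2*, an unconventional cyclin, was higher (log2 fold change 0.74, SE 0.15, adjusted p = 0.0104), *Cdkn1a* and *Cdkn2c* were lower, and *Cdkn1b* (p27) stood at 146, 201 and 209 against 143, 241 and 224. This list had 2 higher and 2 lower without P0, 2 and 3 without P6, and 0 and 1 without P3 replicate 1. Over all genes tested in the main fit, 8.38% were higher and 16.5% lower.

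Of 15 bipolar genes 2 were higher and 1, *Pcp2*, lower, beside 8.38% and 16.5% of all genes tested. This count moved with the libraries, to 7 higher of 14 without P0 and 1 higher of 15 without P3 replicate 1, and to 4 higher without the neurogenic criterion or with the 8 members of P3 replicate 2. *Lhx4*, a LIM homeodomain factor of bipolar cells and cones, stood at 83.3, 146 and 280 CPM against 10.8, 28.5 and 61.2 (log2 fold change 2.57, SE 0.14, adjusted p = 3.48e-05). It was high in the members at each age, including those where 5 of 7 bipolar markers were at 0. *Bhlhe23*, a bHLH factor of bipolar cells, had 0 UMIs in the members of both earlier libraries, so its call (log2 fold change 2.04, SE 0.48, adjusted p = 0.0236) rests on P6.

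Of 14 genes of migration and the cytoskeleton 5 were higher and 3 lower, which became 8 and 3 without P0 and 6 and 6 without P6. *Sox4*, a SoxC factor of immature neurons, stood at 1982, 2413 and 3510.3 CPM against 1260, 1251 and 1408 (log2 fold change 1.06, SE 0.15, adjusted p = 0.0026). *Tubb3*, the neuronal beta tubulin, stood at 782, 609 and 655 against 384, 201 and 168 (log2 fold change 1.62, SE 0.19, adjusted p = 0.00107). *Pak3*, a kinase acting on actin, had a log2 fold change of 1.71 (SE 0.11, adjusted p = 7.84e-05), and *Robo2*, an axon guidance receptor, one of 1.00 (SE 0.12, adjusted p = 0.00122). *Sox11*, *Dcx* and *Nfasc* were lower, and 3 lower of 14 is close to the 16.5% of all genes tested that were lower. The study had picked *Abca4*, *Robo2*, *Sox4*, *Tubb3* and *Stmn2* for its *Neurod4* group of precursors on pooled data that include libraries used here, and 4 of these 5 were higher here, so that count is no independent evidence.

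The 12 genes with the largest positive fold change were *Tacr3*, *Vxn*, *Gm17135*, *Runx2os1*, *Runx2*, *Actc1*, *Krt12*, *Il17b*, *Myh3*, *Gem*, *Gsdmd* and *Fabp7*. *Tacr3*, the neurokinin B receptor, stood at 19.5, 6.2 and 18.1 CPM against 0.675, 0.52 and 2.38 (log2 fold change 3.77, SE 0.38, adjusted p = 0.000515). *Vxn* (vexin), which promotes neuronal differentiation, stood at 92.7, 171 and 210 against 5.43, 18.1 and 24.4 (log2 fold change 3.53, SE 0.18, adjusted p = 2.51e-05). *Runx2*, best known from bone, stood at 32.2, 26.6 and 36.3 against 3.09, 3.97 and 5.21 (log2 fold change 3.04, SE 0.18, adjusted p = 5.1e-05). *Runx2os1* lies opposite to *Runx2*, and its count cannot be told apart from it if strand was not used. *Gem*, a small GTPase, had a log2 fold change of 2.76 (SE 0.21, adjusted p = 0.000138). *Fabp7*, a fatty acid binding protein of neural progenitors, stood at 4236, 4618 and 4023 CPM in the members and at 282, 1014 and 1146 in the other cells (log2 fold change 2.71, SE 0.35, adjusted p = 0.00146). The 12 genes with the largest negative fold change, *Gal3st4* first, all had 0 UMIs in the members. Against a floor of 3 counts over the group, *Gal3st4* was at least 34.3-fold lower and the others at least 5.90-fold lower.

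Of the fits that left out 1 library, the one without P3 replicate 1 called the fewest genes, with 387 higher and 1262 lower. The cause was not tested. In that fit *Hes6* (adjusted p = 0.0711), *Bhlhe23* (0.0623) and *Ccng2* (0.0768) no longer passed. All 9 Notch targets and inhibitors and all 16 cell cycle genes still did.

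**Figure D3:**
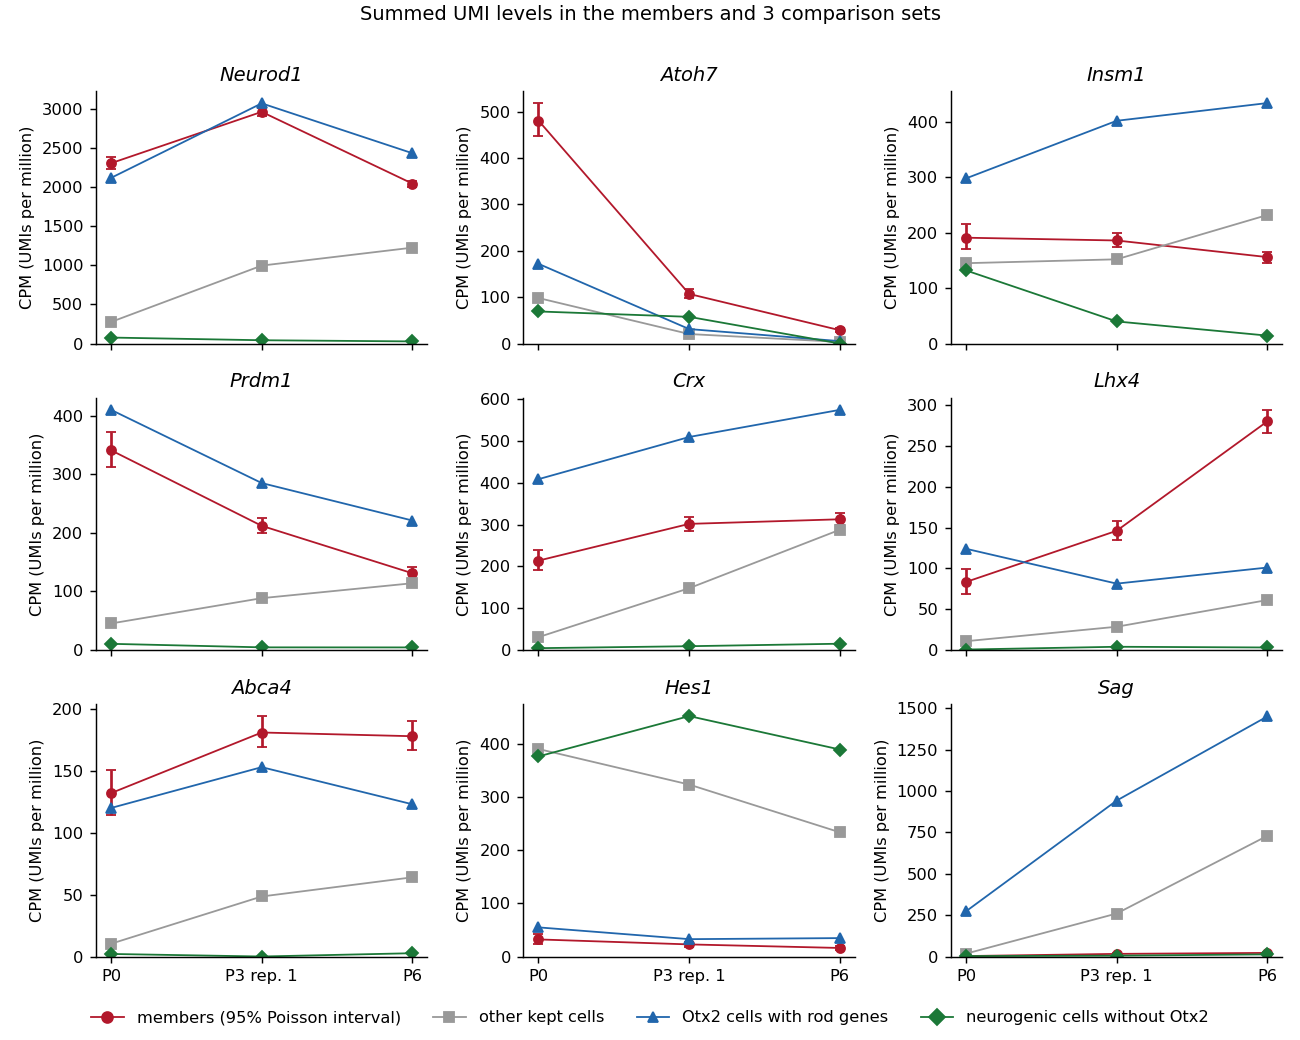
Summed level (CPM, linear axes from 0) of 9 genes in the members (red, 95% Poisson interval) and in the 3 comparison sets, by library. Members share *Neurod1* with *Otx2* cells that have rod genes (2309, 2967 and 2048 against 2121, 3076 and 2437), have less *Crx*, less *Insm1* and more *Atoh7* than those cells, and hold *Lhx4* at 83.3, 146 and 280 where neurogenic cells without *Otx2* hold 3.99 or less.

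The second comparison set the members against *Otx2* cells with rod genes, those with at least 1 UMI of *Nrl* or *Nr2e3* and none of *Tfap2b*, *Ptf1a* and *Mki67* (576, 2889 and 6062 cells). This set had no requirement on *Neurod4* or the neurogenic genes, so higher neurogenic and lower rod genes in the members partly follow from the selection. Members had more of most neurogenic and migration genes tested and less of nearly all photoreceptor effectors, while *Neurod1* did not pass the test. Of 12265 genes tested, 2582 were higher in the members (21.1%) and 2545 lower (20.8%), with a median over all genes of 0.01. The cells with rod genes were shallower, with median UMIs of 3129.5, 2687 and 2750 against 4801, 3930 and 4409 in the members. With both sets held to cells of 3000 to 12000 UMIs, 78.4% of the calls were kept in the same direction.

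Of 12 neurogenic genes 9 were higher in the members, with a median log2 fold change of 1.07. *Neurog2*, a bHLH factor of neurogenic progenitors, stood at 46.3, 43.2 and 72.6 CPM against 16.8, 14.7 and 22.0 (log2 fold change 1.73, SE 0.11, adjusted p = 7.48e-06). It was higher in 3 of 3 libraries. *Atoh7* had a log2 fold change of 1.92 (SE 0.16, adjusted p = 2.87e-05) and *Rgs16* one of 1.89 (SE 0.10, adjusted p = 2.24e-06). *Insm1*, a zinc finger factor of newborn neurons, was the 1 gene of the list that was lower, at 191, 186 and 156 against 298, 402 and 434 (log2 fold change -1.01, SE 0.13, adjusted p = 0.000276). *Neurod1* did not pass, with a log2 fold change of 0.03 (SE 0.07, adjusted p = 0.761).

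The Notch ligands *Dll4* (log2 fold change 2.30, SE 0.17, adjusted p = 1.34e-05) and *Dll1* (1.24, SE 0.15, adjusted p = 0.000192) were higher together with *Notch1*, and *Jag1*, *Jag2* and *Notch2* were lower. Without P3 replicate 1, and also without P6, 4 genes of this list were left to test and 0 were lower, and with DESeq2 6 were tested and 0 were lower. *Dll1* stood at 95.3, 44.0 and 44.4 CPM against 27.7, 24.2 and 21.8. Of 9 Notch targets and inhibitors 4 were lower and 0 higher, with a median of -0.50. Cell cycle genes were lower for 4 of 16 and higher for 0 (median -0.19), a share close to the 20.8% of all genes, and 1 was lower without P3 replicate 1 and 2 with DESeq2.

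Among the photoreceptor regulators 8 of 12 were lower and 2 higher. *Crx* had a log2 fold change of -0.75 (SE 0.08, adjusted p = 9.82e-05), from 214, 302 and 313 CPM in the members and 409, 510 and 575 in the cells with rod genes. *Rorb* was higher, at 2747, 3959 and 3397 against 1715, 1901 and 1614 (log2 fold change 1.03, SE 0.10, adjusted p = 5.06e-05), and so was *Six3*, a homeodomain factor of progenitors and bipolar cells (log2 fold change 0.54, SE 0.07, adjusted p = 0.000411). *Prdm1* had a log2 fold change of -0.39 (SE 0.09, adjusted p = 0.00895). Of the 21 effectors 20 were lower (median -5.45), and all 9 cone genes tested were lower (median -4.09). *Rom1*, a structural protein of outer segment discs, was seen in the members at 113, 99.8 and 124 CPM, against 857, 1348 and 1643. *Prom1*, the gene the study used for its late precursors, stood at 43, 37.9 and 39.2 against 207, 220 and 273. *Abca4* was again the exception, at 132, 181 and 178 against 120, 153 and 123 (log2 fold change 0.43, SE 0.10, adjusted p = 0.00795). The calls for *Abca4* and *Prdm1* were lost without P3 replicate 1 (adjusted p = 0.101 and 0.0766) and without P6 (0.109 and 0.104).

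Of 13 bipolar genes tested 7 were higher and 3 lower, with a median of 1.19. The summed list stood at 231, 373 and 1318 CPM against 327, 242 and 454, so members held less of it at P0, and without P6 7 genes were tested, of which 3 were higher and 2 lower. *Bhlhe22*, a bHLH factor of bipolar and amacrine subtypes, stood at 52.4, 86.1 and 190 CPM against 25.9, 34.7 and 48.0 (log2 fold change 1.69, SE 0.17, adjusted p = 6.8e-05). *Isl1*, a LIM homeodomain factor of ON bipolar cells, stood at 8.06, 19.9 and 155 against 11.8, 2.51 and 33.2, so the sets did not keep 1 order at all ages. Its log2 fold change was 2.22 (SE 0.33, adjusted p = 0.000753), and with DESeq2 the adjusted p was 0.158.

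Of 14 migration and cytoskeleton genes 12 were higher and 1, *Nfasc*, lower, with a median of 1.18. *Tubb3* had a log2 fold change of 1.87 (SE 0.10, adjusted p = 3.3e-06) and *Sox11* one of 1.16 (SE 0.09, adjusted p = 1.44e-05), from 254, 120 and 103 CPM against 107, 63.3 and 49.8. All 5 genes the study picked for its *Neurod4* group were higher (3 of 5 without P3 replicate 1 or without P6), as were 4 of 5 it picked for its early group, and neither count is independent evidence. Of the early group 0 were higher and 2, *Hes5* and *Pax6*, were lower against other kept cells and against neurogenic cells without *Otx2*, although without P6 2 of 5 were higher against other kept cells and without P0 4 were lower against cells without *Otx2*. The largest positive fold change was that of *Tfap2d*, an AP-2 family factor, at 11.4, 21.2 and 21.4 against 4.99, 2.2 and 1.82 (log2 fold change 3.23, SE 0.33, adjusted p = 8.91e-05). *Vxn* was higher here too, at 92.7, 171 and 210 against 21.3, 33.3 and 36.5 (log2 fold change 2.50, SE 0.11, adjusted p = 8.06e-07). Of the 12 genes with the largest negative fold change 11 had 0 UMIs in the members, and *Gal3st4* was at least 123-fold lower. *Ppargc1b*, a coactivator of energy metabolism, had 1 UMI against 940, a ratio of 321 (95% counting interval 57.5 to 12699).

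Without P3 replicate 1, 967 genes were higher and 1190 lower, and without P6, 1298 and 1503. With DESeq2, 1483 were higher and 1624 lower, and the bipolar count became 3 higher and 2 lower.

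The third comparison set the members against neurogenic cells with no *Otx2* UMI that met the same neurogenic criterion and the same 5 exclusions, with no requirement on *Neurod4* (557, 392 and 397 cells). Its name refers to that criterion alone, since the neurogenic list summed to 1558, 1976 and 1843 CPM in it, below the 1791, 2847 and 3066 of all other kept cells. Progenitor markers summed to 5234, 5559.7 and 5198 in this set against 949, 701 and 1209.6 in the members. Müller glia markers summed to 1237, 2209 and 5081 against 780, 820 and 1004, and immediate early genes to 1038, 1979 and 3095 against 379, 858 and 1199. At P0 the set also held ganglion cell genes, with *Sncg* at 789 and *Isl1* at 123 CPM. The part of these other cells in the results below was not tested. The sets were split on *Otx2* itself, and only the members needed *Neurod4*. Higher photoreceptor genes in the members, *Crx*, *Prdm1* and *Neurod1* among them, thus partly follow from the selection. Members had more of most cone genes tested and of *Crx*, *Prdm1* and *Neurod1*, and less of the cell cycle genes and of the Notch targets and inhibitors. Of 11513 genes tested, 1624 were higher in the members (14.1%) and 2085 lower (18.1%), with a median over all genes of 0.01.

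*Crx*, *Prdm1* and *Neurod1* were higher in the members in 3 of 3 libraries. *Crx* stood at 214, 302 and 313 CPM against 4.44, 9.13 and 15.1 (log2 fold change 4.97, SE 0.22, adjusted p = 5.94e-05). *Prdm1* stood at 341, 212 and 131 against 10.6, 4.56 and 4.45 (log2 fold change 5.13, SE 0.17, adjusted p = 3.79e-05), and *Neurod1* at 2309, 2967 and 2048 against 76.6, 42.2 and 27.2 (log2 fold change 5.75, SE 0.30, adjusted p = 8.56e-05). All 3 genes stood at 76.6 CPM or below in the cells without *Otx2*. *Rorb* was higher (log2 fold change 1.06, SE 0.07, adjusted p = 0.00022), and *Six3* was the 1 regulator that was lower, at -0.66 (SE 0.15, adjusted p = 0.0185), a call lost without P3 replicate 1 (0.154) and without P6 (0.0665). In all, 5 of 10 regulators tested were higher.

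Of 14 effectors tested 8 were higher and 0 lower (median 1.37), and of 6 cone genes 5 were higher and 0 lower (median 3.89). *Abca4* had a log2 fold change of 6.52 (SE 0.37, adjusted p = 0.000115), with 0 UMIs in the comparison set in P3 replicate 1. *Gnb3*, the cone and ON bipolar transducin beta subunit, stood at 222, 97.6 and 181 CPM against 6.21, 6.28 and 5.79 (log2 fold change 4.83, SE 0.22, adjusted p = 5.94e-05). The other 6 effectors tested did not pass. *Lhx4* had a log2 fold change of 6.18 (SE 0.26, adjusted p = 5.93e-05), and 4 of 8 bipolar genes tested were higher and 0 lower. Without P3 replicate 1, 3 of the effectors and 1 of the bipolar genes were higher. Without P6 1 of 5 bipolar genes tested was higher, and with DESeq2 2 of 8.

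Of 11 neurogenic genes tested 6 were higher and 0 lower. *Btg2* had a log2 fold change of 2.29 (SE 0.21, adjusted p = 0.000589). *Atoh7* had one of 2.29 (SE 0.53, adjusted p = 0.0182), which did not pass with DESeq2 (0.118). All 9 Notch targets and inhibitors were lower (median -2.74), with *Hes1* at a log2 fold change of -4.14 (SE 0.20, adjusted p = 6.63e-05), and all 16 cell cycle genes were lower (median -2.49). *Notch2* stood at 0.671, 0.664 and 0.181 against 5.91, 11.4 and 13.4 (log2 fold change -4.49, SE 0.56, adjusted p = 0.00179). Of 14 migration genes 5 were higher and 3 lower, beside 14.1% and 18.1% of all genes tested. These counts became 9 and 2 without P0 and 2 and 1 without P3 replicate 1. These Notch-related and cell cycle genes moved with the progenitor and Müller glia markers given above.

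Among the genes with the largest fold change, 7 had 0 UMIs in the cells without *Otx2*. *St14* (matriptase), a membrane serine protease, stood at 29.5, 25.9 and 14.2 CPM in the members and was at least 51.0-fold higher against the floor of 3 counts over the group. *Slitrk6*, a neuronal surface protein, was at least 38.4-fold higher. *Otx2os1* overlaps the *Otx2* locus on the other strand, so its counts may hold *Otx2* reads and it is uncertain. *Vxn* had 9 UMIs in the cells without *Otx2* against 2068 in the members. Without P3 replicate 1, 421 genes were higher and 681 lower, and without P6, 968 and 1466. With DESeq2, 962 were higher.

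TAATCC was in 7.28% of windows of the genes higher against other cells, 5.21% of those lower and 5.88% of those tested. Against cells with rod genes the shares were 5.57%, 7.14% and 5.87%, and against neurogenic cells without *Otx2* 7.92%, 4.26% and 5.57%. Against other cells CAGCTG was in 16.9%, 16.8% and 15.9% of windows and CAGATG in 11.7%, 12.3% and 11.8%, in the same order. In that comparison windows were matched for 996 of the 1309 higher genes and 1967 of the 2580 lower ones. These shares were not tested.

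Within the members, *Isl1* and *Nrxn3* stood far above their P0 level at P6, and *Atoh7* far below it. Over 8513 genes with at least 100 UMIs in the members, 281 (3.30%) had a log2 difference over 1 from P0 to P6, and 135 (1.59%) one under -1. Of these, 83 and 55 passed the same limit in the other kept cells. With 1 library at each end this is a description. *Isl1* stood at 8.06, 19.9 and 155 CPM in the members and in the other cells at 97.6, 8.58 and 24.9. *Nrxn3*, a presynaptic neurexin, stood at 2.69, 97.0 and 362, and *Rnf182*, a ubiquitin ligase, at 2.69, 30.8 and 120. All 3 genes had their highest value at P6. *Trnp1*, a nuclear protein on the list of bipolar genes, stood at 2.69, 1.99 and 37.7. *Vsx1*, a homeodomain factor of OFF cone bipolar cells, and *Grm6*, the glutamate receptor of ON bipolar cells, had 0 UMIs before P6, where they stood at 11.1 and 7.07. *Nfix*, a factor of late retinal progenitors, and *Ptgds*, prostaglandin D synthase, were also higher later, at 16.8, 102 and 190 and at 4.03, 166 and 275, and both were higher at later ages in the other cells too. *Atoh7* was lower later, at 481, 107 and 28.7. *Prdm1* stood at 341, 212 and 131, while *Crx* stood at 214, 302 and 313. *Sncg*, a ganglion cell gene, stood at 69.8 at P0 and had 0 UMIs in P3 replicate 1 and at P6, and in the other cells it stood at 197, 1.37 and 0.0883.

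The P3 pair gave a measure of how far libraries of 1 age differ. Because P3 replicate 2 had 8 members, the cells before the 5 exclusions were used. *Isl1* stood in them at 3.43 CPM at P0, then 12 and 5.17 for the P3 replicates, then 114 at P6. *Trnp1* stood at 3.18, then 1.64 and 1.60, then 30.3. At P6 both genes were above either P3 library by more than the pair differed. *Prdm1* stood at 299, then 236 and 166, then 175, so P6 lay within the pair. *Atoh7* stood at 380, then 87.2 and 0.0891, then 18.5, and *Sncg* at 29.4, then 0.0913 and 21.1, then 0, so for both genes the pair differed by more than P3 replicate 1 differed from P6. *Neurod1* stood at 1731, then 2739 and 1088, then 2088, and the pair spanned P0 and P6. *Crx* stood at 194, then 323 and 366, then 372, so P0 lay below the pair and P6 close to its higher library. *Nrxn3* stood at 65.4, then 122 and 51.8, then 329, and *Abca4* at 109, then 176 and 67.7, then 178.

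**Figure D4:**
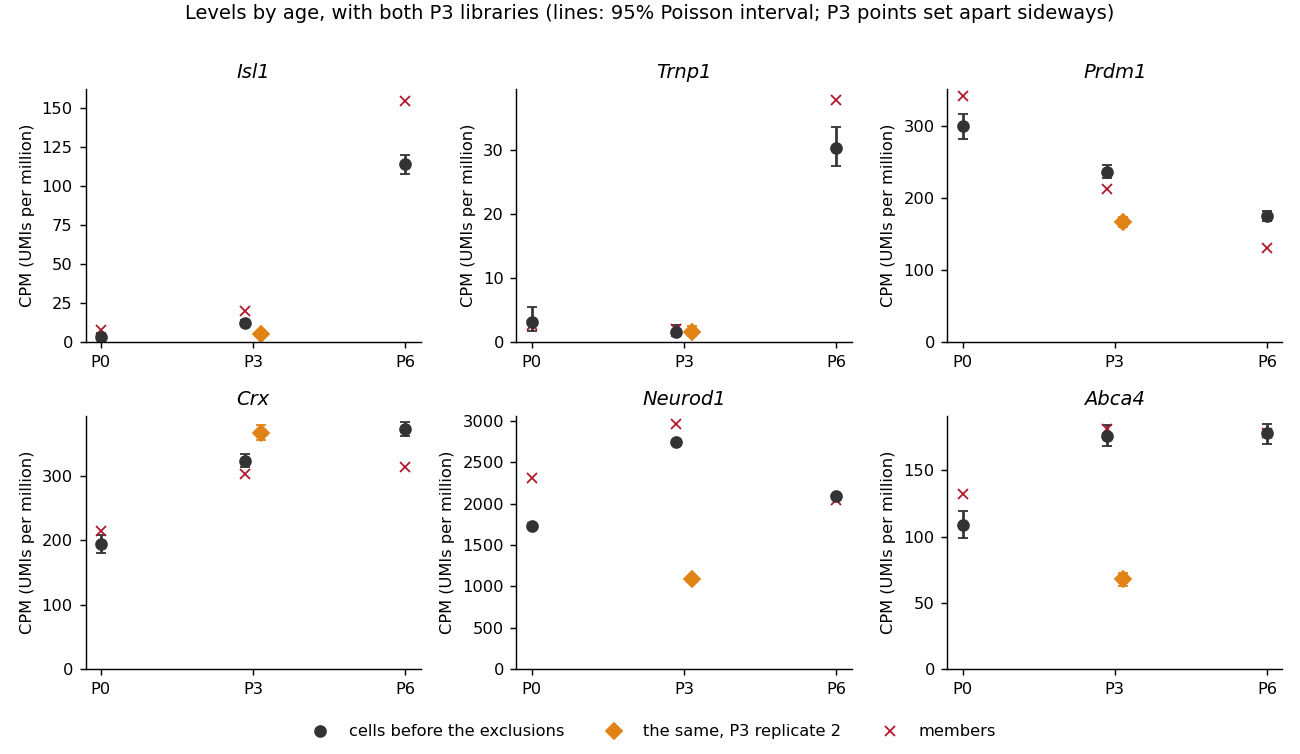
Level (CPM, linear axes from 0) of 6 genes by age in the cells before the 5 exclusions (black circles, and orange diamonds for P3 replicate 2; lines are 95% Poisson intervals) and in the members (red crosses). *Isl1* and *Trnp1* at P6 (114 and 30.3) lie far above both P3 libraries, while *Prdm1* at P6 (175) lies between them (166 and 236).

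The share of members in which a gene was seen was compared after thinning each cell to 2000 UMIs, with cells that had *Tfap2b* and neither *Otx2* nor *Mki67*, which are of the amacrine lineage, as the background. *Crx* was seen in 36.1%, 45.2% and 44.3% of members by age, against 0.455%, 2.71% and 6.17% of the amacrine set. *Prdm1* was seen in 46.5%, 32.8% and 22.3%, against 1.04%, 1.30% and 0.974%. Both regulators were thus seen more often than in the amacrine set in each library, and neither in a majority of the thinned members. In all other kept cells, thinned alike, *Crx* was seen in 5.77%, 22.4% and 38.5% by age and *Prdm1* in 7.64%, 15.2% and 19.9%. Against those cells the margin of the members was narrowest at P6 for both genes. The *Otx2* cells with rod genes held both genes more often than the members in each library. *Isl1* was seen in 0.347%, 2.75% and 12.5% of members, against 10.7%, 1.18% and 0.974% of the amacrine set. At P0 its share in the members lay below that of the amacrine set, and at P6 above it. The amacrine set itself held *Isl1* more often at P0 than all other kept cells (3.60%), so there it is no background for this gene. Without thinning, *Crx* was seen in 58.1%, 65.9% and 71.4% of members and *Prdm1* in 72.0%, 50.8% and 36.4%.

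*Crx* and *Prdm1* were also counted together in the unthinned members. *Prdm1* was seen in 73.8% of members with *Crx* and in 69.4% of those without at P0. The shares were 52.8% and 46.8% in P3 replicate 1, and 37.9% and 32.9% at P6. These are counts of cells from 1 library each and were not tested.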

How the data were processed

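The data were single-cell RNA-seq of 4 postnatal mouse retina libraries. Raw UMI counts for each gene and barcode were deposited, made by the authors. The headers of the deposited counts name Cell Ranger 6.1.2 for P0, P3 replicate 1 and P6, and no version for P3 replicate 2. The older annotation of P3 replicate 2 shares 27040 identifiers with the newer one. The sample records give the build as mm10. The members and gene lists were chosen with earlier results of these data known.

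UMI counts were summed per library and cell set, and a sum needed at least 20 cells, which left 6 sums from 3 libraries where 8 sums from 4 had been planned. They were tested with edgeR 4.0.16 in R 4.3.3 (TMM, filterByExpr, glmQLFit and glmQLFTest) with the library as a block and Benjamini-Hochberg adjustment at 0.05. The 11 rule genes stayed in library sizes and were not tested. Both sums of a pair come from the same library and deviated together (correlation 0.328 to 0.548). Levels are CPM of the summed UMI counts, with exact Poisson intervals. Shares have exact binomial intervals at 95%, counting error only. A count of 0 was set to a floor of 3 over the group. P-values measure the spread between pooled libraries of different ages.

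Doublets were called with Scrublet in scanpy 1.11.5 at 0.8% per 1000 cells and left out in an alternative only. The genes named with a fold change are those of the lists, and in each comparison the 12 largest in each direction among genes past the threshold, with the same direction in every library and at least 50 UMIs. The age order used a pseudocount of 5 CPM. The cells before the exclusions were set side by side after the data had been seen. Results for some genes are not reported here. Other tools were DESeq2 1.42.0, Python 3.11.15, numpy 2.4.6, scipy 1.17.1, pandas 2.3.3 and matplotlib 3.10.9. Gene symbols are those of the files. On simulated counts with known changes, the share of false calls was above the nominal one for the comparisons with other kept cells and with *Otx2* cells with rod genes, and below it for neurogenic cells without *Otx2*, so in the former comparisons adjusted p-values near 0.05 are less certain than they read.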

Additional observations from a re-analysis of the deposited data

Results flagged for a closer look

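The gene rule was also applied to the 2 embryonic libraries, which no comparison used, and cells passed it in both. In the embryonic day (E) 14 library 0.926% of kept cells passed (144 of 15553, 95% exact binomial interval 0.781 to 1.09), and in the E16 library 0.479% passed (13 of 2714, 0.255 to 0.818). Both shares are below the 2.78% at P0, and the parts of age and of library in this were not tested. As for P3 replicate 2, no Cell Ranger version was stated for the E16 library. Before the 5 exclusions, 168 of 2714 E16 cells and 288 of 15553 E14 cells met the other criteria, against 634 of 10407 at P0. Of the 168 E16 cells 134 held *Mki67*, so most of them were lost at the exclusions. The median E14 cell that passed held 4 *Otx2* and 4 *Neurod4* UMIs, and *Gadd45g* was seen in 28.5% of these cells, against 71.3% at P0. *Abca4* stood at 75.0 CPM in them (55.7 to 98.9) and at 5.66 in the other E14 cells. No group of samples was large enough for a search for single outlying samples.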

How the results depend on the processing

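The alternatives were run on the counts over all genes tested, the gene lists, 54 results of named genes and the member shares and levels of *Crx*, *Prdm1* and *Neurod1*, not on the age orders, marker sums or other values. None of the 54 changed direction; among all calls 1, that of *Hbb-bs* against cells with rod genes, did so without the neurogenic criterion. Of 754 values of named genes under the alternatives 728 kept their side of the threshold and 26 lost the call. With no replicate block (the library left out of the design) the counts of genes higher and lower were 572 and 1312 against other cells, 1082 and 1399 against *Otx2* cells with rod genes, and 1047 and 1359 against neurogenic cells without *Otx2*. Under it *Atoh7* lost its call in all 3 comparisons, as did *Btg2*, *Neurod1*, *Hes6* and *Crx* against other cells and *Prdm1*, *Abca4*, *Isl1* and *Sox11* against cells with rod genes. With DESeq2, 1483 and 1624 were called against cells with rod genes, and 962 higher against cells without *Otx2*. Leaving out 1 library at a time gave 387 to 1918 higher and 1262 to 2995 lower genes against other cells, 967 to 3043 and 1190 to 3204 against cells with rod genes, and 421 to 2196 and 681 to 2439 against cells without *Otx2*, and the lowest of each range was without P3 replicate 1. Admitting the 8 members of P3 replicate 2, an alternative chosen after seeing the data, gave 843 higher genes against other cells and 816 against cells without *Otx2*, and *Neurod1* (adjusted p = 0.0554) and *Crx* (0.057) no longer passed against other cells. Size factors, the filter on low counts, the limit of 4000 genes, doublets, the depth window and *Neurod4* at 2 or 5 kept the counts over all genes tested within 1.5 times of the main ones. Counts for small lists moved more: with no filter on low counts, cone genes lower than in other cells went from 5 to 8 and bipolar genes higher than in cells without *Otx2* from 4 to 8, and without doublets cell cycle genes lower than in cells with rod genes went from 4 to 1. Thinning each cell gave member shares of 1.74% at P0 and 7.76% at P6, and leaving out doublets 9.60% in P3 replicate 1 and 9.11% at P6. Taking the mean over cells gave levels in CPM outside the counting interval for *Neurod1* (2402, 3074 and 2245 by age), *Crx* (332 at P6) and *Prdm1* (149 at P6), and leaving out doublets did so for *Neurod1* (2480.4, 3061 and 2117). The cause of these shifts was not tested. Depth differed between the sums, as the members held 1489466 UMIs at P0 against 4517615 in P3 replicate 1 and 5513220 at P6.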

Other observations

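Marker lists of further cell types are given here as levels, with no test. The summed level of 5 horizontal cell markers was 185, 219 and 317 CPM in the members by age against 120, 143 and 157 in the other kept cells. Vascular markers summed to 38.3, 73.3 and 64.8 against 165, 252 and 245. Markers of ganglion cells summed to 266, 29.2 and 47.5 in the members, against 662, 65.4 and 76.6 in the other kept cells. Müller glia markers summed to 780, 820 and 1004 against 1227, 1603 and 2516, and cone markers to 491, 421 and 342 against 399, 1354 and 1669.6. Markers of astrocytes summed to 2.01, 1.99 and 5.08 in the members and those of pigment epithelium to 2.69, 1.77 and 1.63.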
